A study of Mus musculus with 36 samples.

Results

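The 34 genes described here encode the enzymes of cholesterol synthesis, the proteins that sense and switch on that synthesis, and proteins that move cholesterol within hepatocytes or out of them. They were taken from a list of symbols, and a gene was measured by the array probe that carried its symbol and was the brightest on average. A probe named so was found for 33 of the 34 genes, out of 37074 genes with a probe on the array. No probe carried the symbol Acat2 (acetoacetyl-CoA formation), and it was not analysed here. All 33 measured genes were among the 24102 genes tested, and each was well above background on all 36 arrays.

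Cholesterol is built from acetyl-CoA through mevalonate, farnesyl diphosphate, squalene and lanosterol. The transcription factor SREBP-2, encoded by Srebf2, is carried by its escort Scap to the Golgi and cleaved there when membrane sterol is low, and the INSIG proteins hold it in the endoplasmic reticulum when sterol is high. Its targets include most enzymes of the route. The nuclear receptors LXR alpha and LXR beta (Nr1h3 and Nr1h2) respond to oxysterols and switch on sterol export through ABC transporters, which in the liver load HDL or secrete sterol into bile.

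RNA came from livers of male C57Bl/6J mice, with 6 samples in each of 6 groups and 1 array per sample. The labels number the samples of a group as replicates without saying that each is a separate mouse, so p-values measure the spread between these samples. AAKO mice lacked adipose triglyceride lipase (ATGL), the enzyme that starts the release of fatty acids from stored fat, in white adipose tissue, and CTRL mice were their controls; the promoter that drove the deletion is not given in the sources used here, nor is the age of the mice. Fed mice ate freely, fasted mice had no food for 24 h, and the third pair of groups was fed and received 3 mg/kg of CL316243, which activates beta 3 adrenergic receptors, by gavage at Zeitgeber time 10 in 0.5% carboxymethyl cellulose. Livers of every group were taken at Zeitgeber time 16, with the lights off. The fed groups belonged to experiment 2 and the other groups to experiment 1, so every comparison of fasted or CL316243 mice with fed mice also compares experiments, and these cannot be told apart. Gavage is recorded for the CL316243 groups alone, and its effect cannot be told apart from that of the compound. The deletion lies in another tissue, so no liver transcript checks the genotype labels.

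Levels are log2 values relative to the 75th percentile of the probes on the same array, a difference of 1 is a doubling, and they are not compared between genes, whose probes differ in response. A gene was called when the Benjamini-Hochberg adjusted p of limma over all genes tested was under 0.05, and errors are standard errors (SE) of the fitted difference with 6 arrays per group. Between 33130 and 37200 of 56605 probes were well above background per array. The mean level of 6 hepatocyte markers lay between 8.85 and 9.42 on all arrays. In fasted AAKO livers 3 of 4 neutrophil markers were higher than in fasted CTRL livers, and the mean of the neutrophil list ranged from 0.561 to 3.42 against -2.70 to 3.05. The list ranged from -2.51 to -0.342 in fed CTRL, from -2.63 to 1.97 in fed AAKO, from -3.57 to -0.251 in CL316243 CTRL and from -1.16 to 0.512 in CL316243 AAKO livers. None of the 6 Kupffer cell and macrophage markers was called between genotypes. The part of these cells in the results below was not tested, and in whole liver fewer cells of a type and less RNA per cell cannot be told apart.

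In CTRL mice, fasting was accompanied by lower levels of almost the whole synthesis route. Of the 33 genes, 24 were lower and 5 higher in fasted than in fed CTRL livers, against 24.1% and 19.7% of all genes tested, and the median difference of the 33 was -1.18 against -0.05 for all genes tested. Of the 18 synthesis enzymes measured, 16 fell. Insig2, the INSIG gene known to rise in liver when insulin is low, went the other way.

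Fasted AAKO livers showed the same broad fall with marked exceptions. There 23 genes were lower and 9 higher than in fed AAKO livers, against 36.1% and 27.5% of all genes tested, with a median difference of -0.79 against -0.10 for all genes. Of the 24 genes lower on fasting in CTRL mice, 22 were also among the 23 lower in AAKO mice, that is 22 of 24 and 22 of 23. This overlap was counted for the listed genes alone, not for all genes tested. Pmvk (phosphomevalonate kinase) was lower on fasting in CTRL and higher on fasting in AAKO livers, and Mvk (mevalonate kinase), lower in CTRL, was not called in AAKO livers. All 5 genes higher on fasting in CTRL mice (Hsd17b7, Scap, Insig2, Npc1 and Nr1h2) were also higher in AAKO mice.

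**Figure D1:**
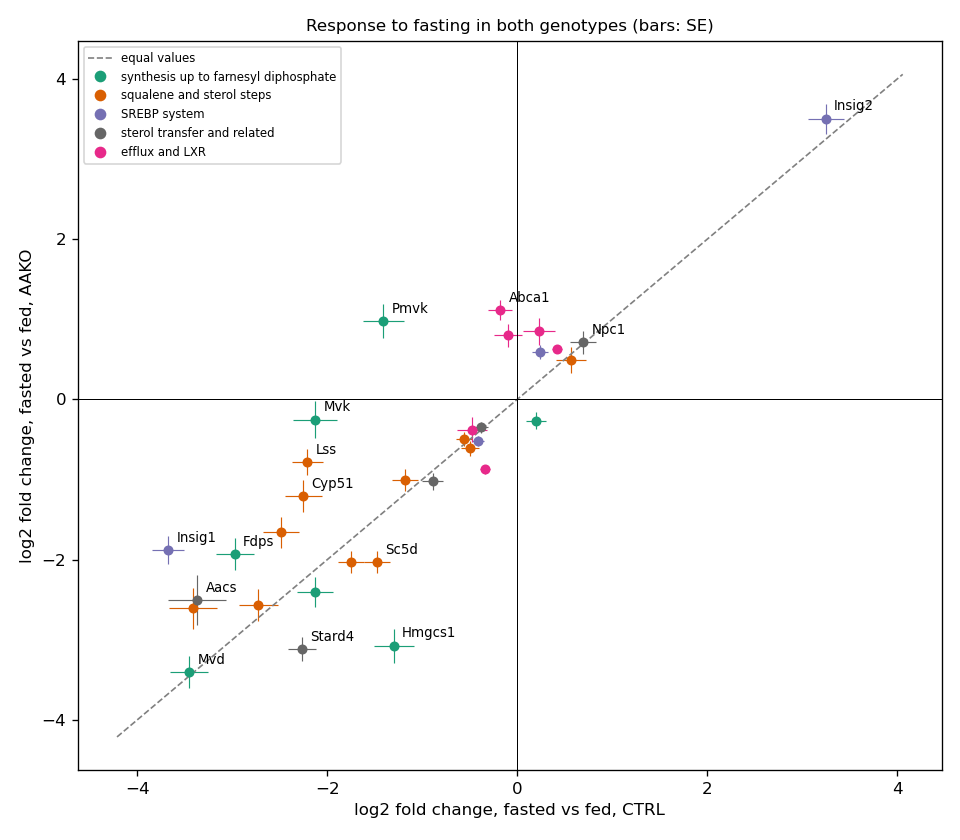
Log2 fold change of 33 cholesterol genes between fasted and fed livers in CTRL mice (x axis) and AAKO mice (y axis), with bars for the SE and a dashed line of equal values; colours mark the roles. Insig2 stands at 3.25 and 3.50, most synthesis genes lie below 0 on both axes, and Pmvk (-1.41 and 0.98) and Mvk (-2.13 and -0.25) lie far above the line while Hmgcs1 (-1.30 and -3.07) lies far below it.

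Between genotypes, fed livers gave no called gene, and fasted livers gave 21. In fed mice limma called 0 of 33 genes, against 0.0415% higher and 0.0373% lower of all genes tested. Of the 33, 13 had an unadjusted p under 0.05, against 1638 of all 24102 genes tested. All 18 synthesis genes had a fitted value above 0. The median difference was 0.23 over the 33 genes and -0.0006 over all genes tested. The count of called genes stayed at 0 in every other scaling, filter and model tried, with 1 exception. Fdps alone was called (0.90, adjusted p = 0.0246) when CTRL fed replicate 4 was left out. In fasted mice 16 genes were higher and 5 lower in AAKO than in CTRL livers, against 21.9% and 27.3% of all genes tested, with a median difference of 0.24 against -0.03. After CL316243, 6 were higher and 7 lower, against 13% and 11.6% of all genes tested, with a median of -0.04 against 0.03. With normexp correction and quantile scaling this split was 6 and 10, beside 2959 and 3144 of all 24102 genes. From the authors' deposited values it was 6 and 9, beside 2495 and 3406 of 24363 genes. The share higher in AAKO livers thus stood above its background in fasting, while the share lower stood below its own.

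**Figure D2:**
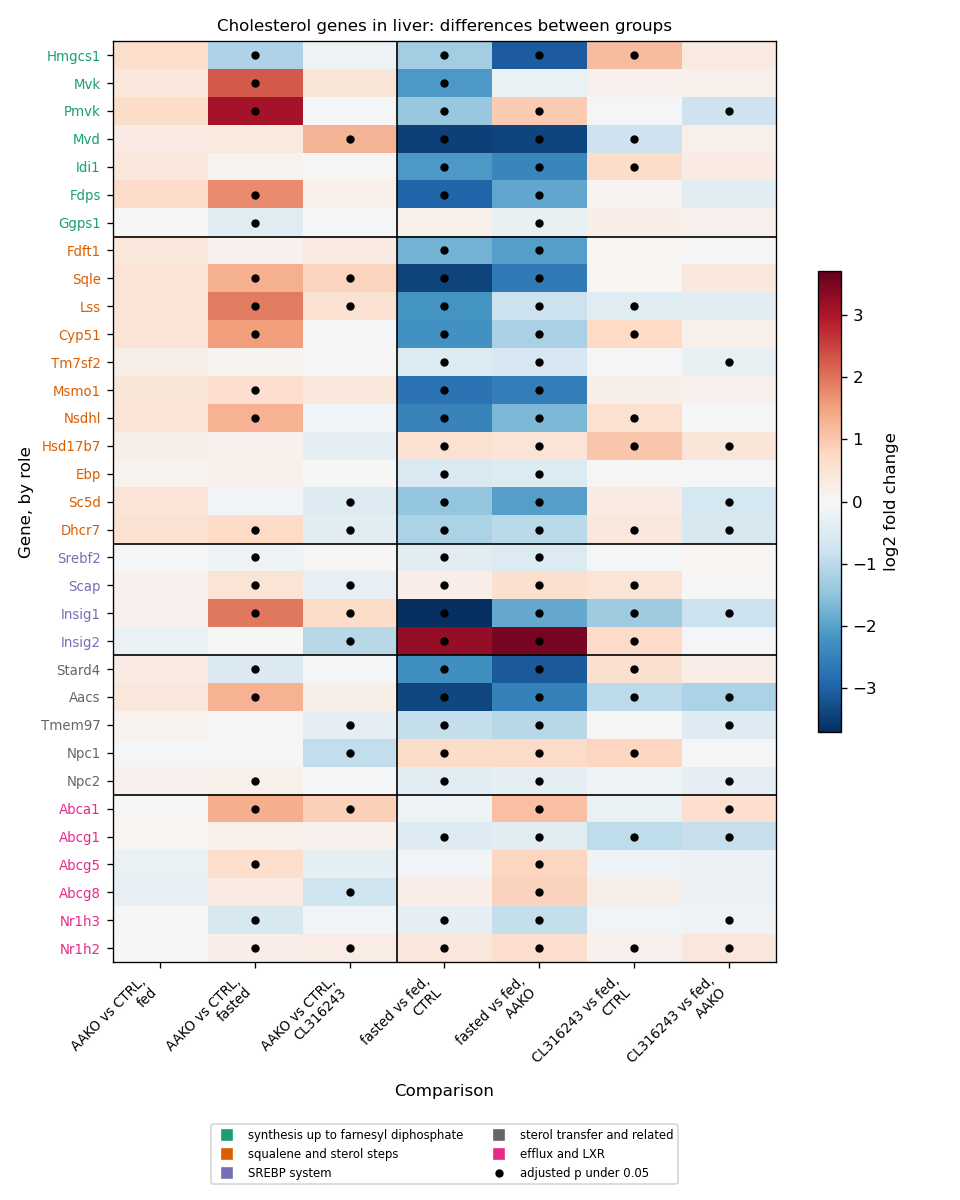
Log2 fold changes of the 33 genes (rows, grouped by role) in 7 comparisons (columns), red for higher and blue for lower in the first-named group, with a black dot where limma's adjusted p was under 0.05. The fed genotype column holds no dot, the fasting columns are blue for most synthesis genes in both genotypes, and Pmvk, Mvk, Insig1 and Lss are the reddest rows in the fasted genotype column.

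The stretch to farnesyl diphosphate was measured with 7 enzymes, the branch enzyme Ggps1 counted among them. Of these, 3 were higher and 2 lower in fasted AAKO than fasted CTRL livers, with a median difference of 0.37. Of all genes tested 21.9% were higher and 27.3% lower, so the share that was lower is near that of all genes. Pmvk ranged from 3.57 to 3.80 (median 3.64) in fasted CTRL livers and from 5.68 to 7.50 (median 6.91) in fasted AAKO livers. The lowest fasted AAKO array was thus far above the highest fasted CTRL array. The difference was 3.08 ± 0.21 (SE, adjusted p = 6.2e-13), an 8.44-fold higher level, and a dimmer Pmvk probe gave 3.09. Within wash batch 1 the difference was 2.48 and within wash batch 2 it was 3.67. The fed arrays ranged from 4.52 to 5.76 in CTRL and from 5.18 to 6.16 in AAKO livers, all above the fasted CTRL arrays, and the highest of both fed groups overlapped the fasted AAKO arrays. The fasting difference in AAKO livers was 0.98 ± 0.21 (adjusted p = 0.00018); in wash batch 1 alone it was 0.56 and not called (adjusted p = 0.143). In CTRL livers the fasting difference was -1.41 ± 0.21.

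Mvk, the kinase 1 step earlier, ranged from 1.47 to 2.55 (median 1.74) in fasted CTRL and from 3.27 to 4.97 (median 4.25) in fasted AAKO livers. Its fasted groups did not overlap, and its fasted AAKO level lay within the joint range of the fed groups, 3.24 to 5.00. The genotype difference was 2.28 ± 0.23 (adjusted p = 1.8e-09), 4.85-fold, and a second probe gave 1.97. Fdps (farnesyl diphosphate synthase) spanned 3.39 to 4.36 in fasted CTRL and 5.05 to 6.33 in fasted AAKO livers, a difference of 1.75 ± 0.20, and the fed ranges were 6.22 to 7.68 in CTRL and 7.18 to 8.19 in AAKO livers. Each fasted group lay below the fed group of its own genotype, while the highest fasted AAKO array passed the lowest fed CTRL array.

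Hmgcs1 (HMG-CoA synthase, the cytosolic enzyme before mevalonate) moved the opposite way. It spanned 4.74 to 6.28 (median 5.74) in fed CTRL, 5.64 to 6.94 (median 6.29) in fed AAKO, 3.83 to 4.64 (median 4.39) in fasted CTRL and 3.08 to 3.38 (median 3.20) in fasted AAKO livers. Every fasted AAKO array was below every fasted CTRL array. The genotype difference in fasting was -1.13 ± 0.21 (adjusted p = 4.2e-05), and it was -1.14 and -1.12 within the wash batches. A second, much dimmer Hmgcs1 probe gave 0.07 for this difference, and with the mean of both probes the value was -0.53 and not called (adjusted p = 0.11). On fasting Hmgcs1 fell by 3.07 on the log2 scale in AAKO livers (SE 0.21, adjusted p = 7.1e-14), and in CTRL livers it fell by 1.30.

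The remaining enzymes of this stretch differed less between fasted genotypes. Mvd (mevalonate diphosphate decarboxylase) spanned 1.60 to 2.59 in fed CTRL, 1.44 to 2.76 in fed AAKO, -1.90 to -1.03 in fasted CTRL and -1.74 to -0.61 in fasted AAKO livers. Its fasted arrays overlapped between genotypes (0.37 ± 0.20, adjusted p = 0.14), while the fasting difference was -3.46 ± 0.20 in CTRL (adjusted p = 2.1e-14) and -3.41 ± 0.20 in AAKO livers (adjusted p = 2.8e-15). Idi1 (isopentenyl diphosphate isomerase) spanned 2.58 to 3.56 in fasted CTRL and 2.92 to 3.25 in fasted AAKO livers and was lower on fasting in both genotypes, by 2.13 and 2.41. Ggps1 (geranylgeranyl diphosphate synthase, a branch toward protein prenylation) was lower in fasted AAKO than fasted CTRL livers by 0.45 (SE 0.10, adjusted p = 0.00059), the ranges overlapped, and its 5 other probes gave values from -0.77 to -0.13; in wash batch 1 alone it was not called (-0.39, adjusted p = 0.054).

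**Figure D3:**
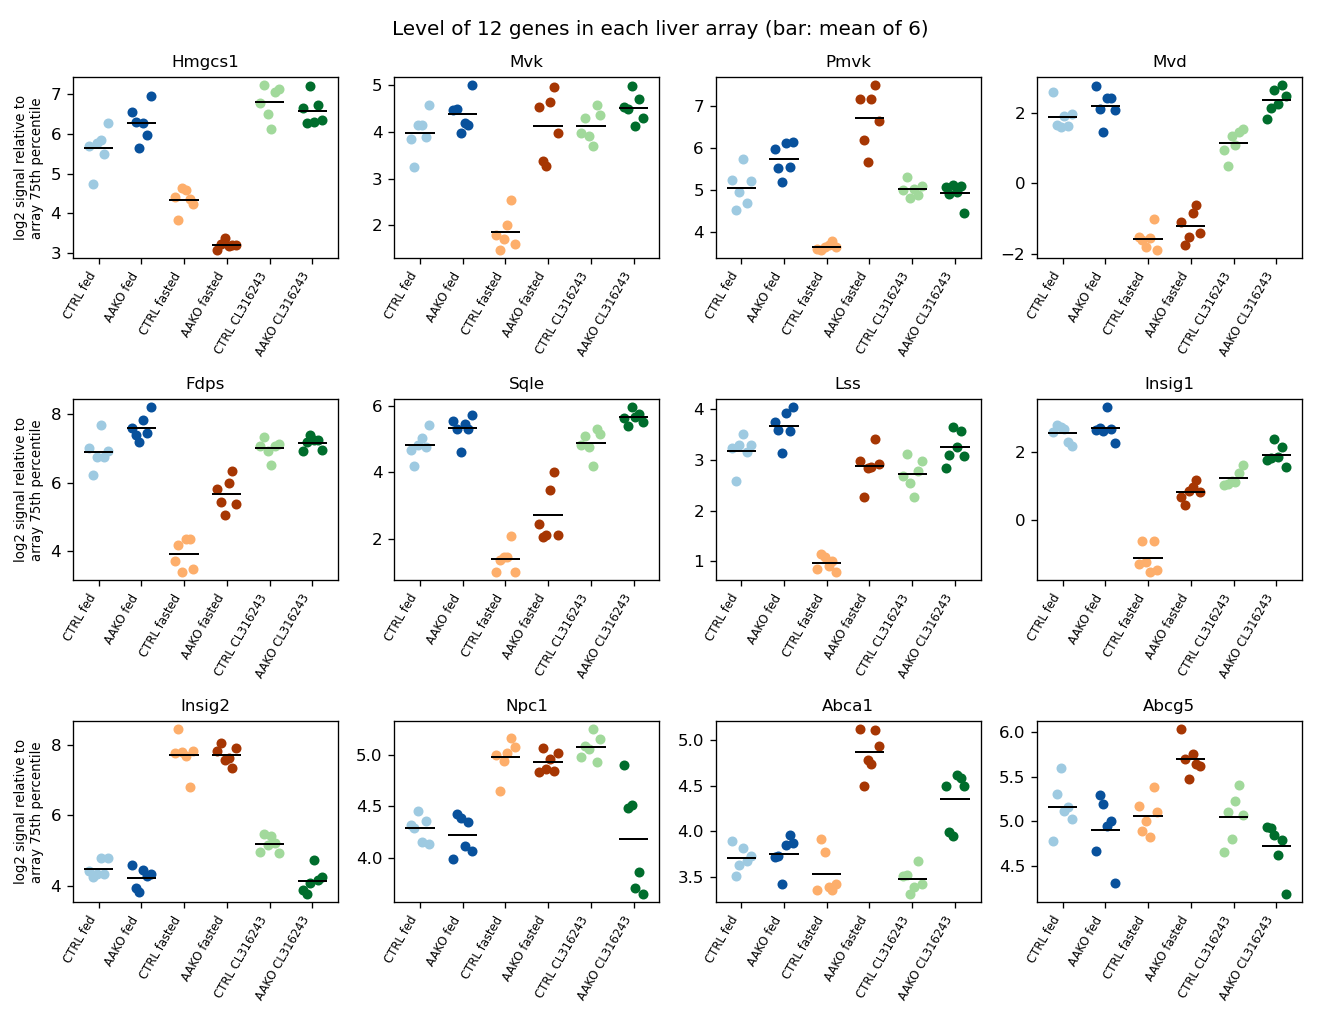
Log2 signal relative to the array's 75th percentile for 12 genes in each of the 36 arrays, grouped by genotype and condition; points are arrays and bars are means of 6. In fasted AAKO livers Pmvk reaches 7.50, above every fed array, Hmgcs1 lies at 3.08 to 3.38, below every other group, and Insig2 is high in both fasted groups.

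Of the 11 enzymes from squalene to cholesterol, 6 were higher and 0 lower in fasted AAKO than fasted CTRL livers, against 21.9% and 27.3% of all genes tested. Lss (lanosterol synthase, which closes the sterol ring) spanned 0.79 to 1.14 (median 0.96) in fasted CTRL and 2.27 to 3.40 (median 2.89) in fasted AAKO livers, without overlap. The difference was 1.92 ± 0.16 (adjusted p = 4.1e-11), and 2 further probes gave 1.99 and 1.25. Cyp51 (lanosterol demethylase) spanned 1.13 to 1.96 and 2.11 to 4.06, a difference of 1.54 ± 0.20, again without overlap. Nsdhl (a sterol dehydrogenase of the demethylation steps) spanned -0.58 to 0.30 and 0.44 to 2.26, a difference of 1.29 ± 0.19, whereas its second and dimmer probe gave -1.34.

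Sqle (squalene epoxidase, a slow step of the route) spanned 1.00 to 2.10 (median 1.41) in fasted CTRL and 2.05 to 4.02 (median 2.29) in fasted AAKO livers. Only the edges of these ranges met, and the difference was 1.31 ± 0.25 (adjusted p = 6e-05). Dhcr7 (the last reductase before cholesterol) was higher by 0.73 ± 0.14 and Msmo1 (methylsterol monooxygenase) by 0.62 ± 0.20, with overlapping ranges. Fdft1 (squalene synthase) gave 0.15 ± 0.14, Tm7sf2 0.10 ± 0.09, Hsd17b7 0.16 ± 0.16, Ebp 0.19 ± 0.08 and Sc5d -0.09 ± 0.14, and none of these was called. A second Sc5d probe gave -2.01 for the same difference.

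On fasting 10 of these 11 enzymes were lower in each genotype, though in AAKO livers the fed and fasted arrays overlapped for Lss and Cyp51. In CTRL livers Sqle fell by 3.42 on the log2 scale (SE 0.25, adjusted p = 2.1e-12), from a fed range of 4.17 to 5.42. In AAKO livers it fell by 2.61 (SE 0.25, adjusted p = 1.3e-10), from a fed range of 4.61 to 5.72. Msmo1 gave -2.72 in CTRL and -2.56 in AAKO livers, Fdft1 gave -1.75 and -2.02, and Sc5d gave -1.47 and -2.03. Ebp and Tm7sf2, the sterol isomerase and a sterol reductase, moved little, by -0.56 and -0.50 in CTRL livers, though their fed and fasted CTRL arrays did not overlap. Hsd17b7, the ketosteroid reductase of the demethylation complex, was the exception among the 11. It rose from a range of 3.90 to 4.72 to one of 4.63 to 5.02 in CTRL livers (0.57 ± 0.16, adjusted p = 0.0041), and 2 further probes gave 0.92 and 0.44; in wash batch 1 alone it was not called (0.50, adjusted p = 0.176).

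The 250 bases before the start of 5 of these genes are given to set the genes that were higher in fasted AAKO livers (Mvk, Lss and Insig1) beside Hmgcs1, which was lower, and Mvd, which was not called. They are RefSeq sequences of assembly GRCm38.p6, while the array's own probe positions are on mm9. They were taken at chr13:119690101-119690350 (Hmgcs1, plus strand), chr8:122443423-122443672 (Mvd, minus strand), chr5:114444019-114444268 (Mvk, plus strand), chr10:76531355-76531604 (Lss, plus strand) and chr5:28071162-28071411 (Insig1, plus strand), and each is written 5′ to 3′ along its gene. Capitals mark the NF-Y box (CCAAT, or ATTGG on the other strand) and, in Hmgcs1, the letters TCACCCCAC, a match to the sterol regulatory element searched for, TCACNCCAC.
Hmgcs1: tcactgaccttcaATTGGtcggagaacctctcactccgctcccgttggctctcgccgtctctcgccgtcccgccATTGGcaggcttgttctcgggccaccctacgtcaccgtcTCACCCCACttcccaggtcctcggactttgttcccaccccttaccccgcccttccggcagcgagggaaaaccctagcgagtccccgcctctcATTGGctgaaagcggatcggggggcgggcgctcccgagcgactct
Mvd: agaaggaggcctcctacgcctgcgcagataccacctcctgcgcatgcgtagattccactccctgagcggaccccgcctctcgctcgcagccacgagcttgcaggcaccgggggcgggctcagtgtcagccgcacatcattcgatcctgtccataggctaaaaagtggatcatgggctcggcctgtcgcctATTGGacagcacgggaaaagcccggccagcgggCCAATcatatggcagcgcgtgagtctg
Mvk: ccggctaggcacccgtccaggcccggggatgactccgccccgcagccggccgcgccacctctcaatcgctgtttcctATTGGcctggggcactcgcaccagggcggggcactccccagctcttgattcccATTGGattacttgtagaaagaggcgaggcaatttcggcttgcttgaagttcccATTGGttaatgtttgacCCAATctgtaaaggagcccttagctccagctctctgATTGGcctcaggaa
Lss: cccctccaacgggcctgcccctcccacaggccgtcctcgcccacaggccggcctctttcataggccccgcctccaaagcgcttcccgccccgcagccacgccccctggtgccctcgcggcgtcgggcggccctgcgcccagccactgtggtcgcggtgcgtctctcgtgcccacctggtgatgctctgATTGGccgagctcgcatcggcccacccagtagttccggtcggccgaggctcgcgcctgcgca
Insig1: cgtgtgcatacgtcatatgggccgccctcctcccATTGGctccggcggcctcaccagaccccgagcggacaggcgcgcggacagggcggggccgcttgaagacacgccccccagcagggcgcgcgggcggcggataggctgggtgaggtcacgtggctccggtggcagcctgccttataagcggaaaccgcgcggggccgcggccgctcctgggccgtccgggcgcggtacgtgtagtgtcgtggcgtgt
All 5 hold an NF-Y box, with 5 in Mvk, 3 in Hmgcs1, 2 in Mvd and 1 each in Lss and Insig1. Entries were found for 28 of the 34 genes; Stard4, Fdft1, Npc1, Sqle, Abcg1 and Fdps had none. Over both strands of the same window, an NF-Y box stood in 21 of the 36 promoters that the table holds for these 28 genes and in 33.8% of all its 32851 promoters. The GC box GGGCGG stood in 23 of the 36 and in 32.7% of all, and the E-box CACGTG in 6 of the 36 and in 6.02% of all. The sterol regulatory element as spelled above stood in 1 of the 36, that of Hmgcs1, and in 1.05% of all. These are matches of letters in this window and show neither a bound factor nor its absence.

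**Figure D4:**
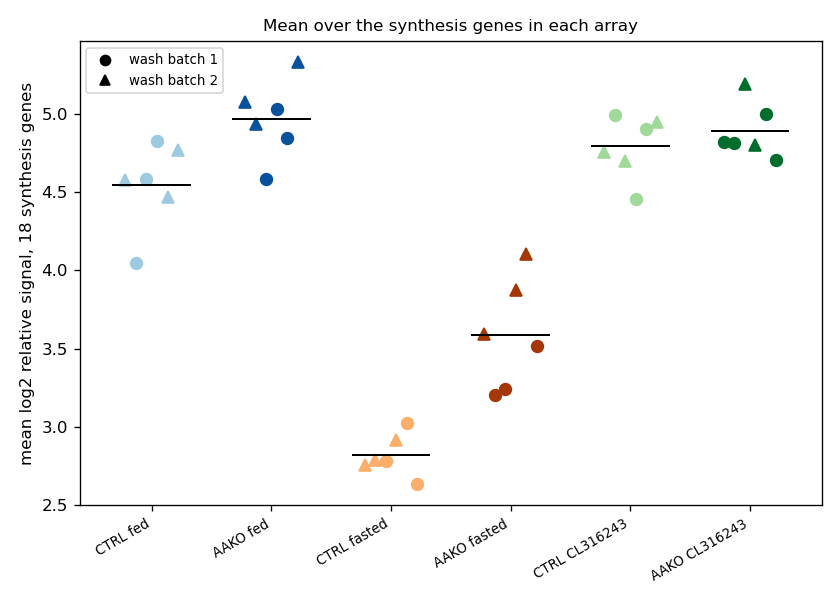
Mean log2 relative signal over the 18 synthesis genes in each array, by group, with bars for group means and symbols for the 2 wash batches. Fasted CTRL arrays lie between 2.63 and 3.02, fasted AAKO arrays between 3.20 and 4.11, and all other arrays at 4.05 or above.

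Averaged over the 18 synthesis genes, the arrays of fasted CTRL livers lay between 2.63 and 3.02 (mean 2.815, SD 0.136, n = 6), and those of fasted AAKO livers between 3.20 and 4.11 (mean 3.59, SD 0.354, n = 6). The fed arrays lay between 4.05 and 4.83 in CTRL and 4.58 and 5.33 in AAKO livers, and after CL316243 between 4.46 and 4.99 in CTRL and 4.71 and 5.20 in AAKO livers. The fasted groups overlapped neither each other nor any fed or CL316243 group except that the highest fasted AAKO array, 4.11, passed the lowest fed CTRL array, 4.05. Of the fasted AAKO arrays, the 3 of wash batch 2 were at 3.59, 3.88 and 4.11 and the 3 of wash batch 1 at 3.20, 3.24 and 3.52. Every array of either batch lay above all fasted CTRL arrays.

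Among the genes of the SREBP system, both INSIG genes changed strongly on fasting, in opposite directions. Insig1, itself a target of SREBP, spanned 2.17 to 2.77 (median 2.62) in fed CTRL, 2.24 to 3.30 (median 2.65) in fed AAKO, -1.55 to -0.62 (median -1.28) in fasted CTRL and 0.43 to 1.16 (median 0.82) in fasted AAKO livers. The 3 levels, fed, fasted AAKO and fasted CTRL, did not overlap. Insig1 fell by 3.68 on the log2 scale on fasting in CTRL livers (SE 0.17, adjusted p = 2.5e-16) and by 1.88 in AAKO livers, and it was higher in fasted AAKO than fasted CTRL livers by 1.95 ± 0.17 (adjusted p = 1e-10), 3.86-fold. Within the wash batches the genotype difference was 1.81 and 2.09.

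Insig2 spanned 4.24 to 4.80 in fed CTRL and 3.81 to 4.58 in fed AAKO livers, and 6.80 to 8.45 in fasted CTRL and 7.34 to 8.07 in fasted AAKO livers. Each fasted array was above each fed array. The rise was 3.25 ± 0.19 in CTRL (adjusted p = 1.9e-14), 9.51-fold, and 3.50 ± 0.19 in AAKO livers (adjusted p = 3.9e-16), 11.3-fold, with 2 further probes at 3.48 and 3.34 in CTRL. Between fasted genotypes the difference was -0.00 ± 0.19 and the arrays overlapped. The test of a genotype difference in the fasting response gave 0.25 ± 0.27 for Insig2, which was not called, against 1.79 ± 0.24 for Insig1 (adjusted p = 1.2e-06).

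Srebf2 and Scap moved little by comparison. Srebf2 was lower on fasting by 0.42 in CTRL and 0.51 in AAKO livers and lower in fasted AAKO than fasted CTRL livers by 0.17 (SE 0.06, adjusted p = 0.023), although its second probe gave 0.21 for the last difference. Scap spanned 5.26 to 5.44 in fasted CTRL and 5.65 to 5.99 in fasted AAKO livers, a difference of 0.51 ± 0.09 without overlap, and it was higher on fasting in both genotypes, by 0.24 and 0.59.

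The genes of sterol transfer and neighbouring steps fell into different patterns. Stard4 (a cytosolic sterol carrier) spanned 2.91 to 3.38 in fed CTRL, 3.26 to 3.67 in fed AAKO, 0.27 to 1.31 in fasted CTRL and 0.07 to 0.88 in fasted AAKO livers. It fell on fasting by 3.12 in AAKO (SE 0.15, adjusted p = 2.7e-17) and by 2.27 in CTRL livers. The genotype difference in fasting was -0.53 ± 0.15 (adjusted p = 0.0031) at this probe and 1.04 at a second, dimmer one. With the mean of both probes it turned to 0.25 and was not called (adjusted p = 0.0969), and in wash batch 2 alone it was -0.10, also not called (adjusted p = 0.723). Aacs (acetoacetyl-CoA synthetase, which feeds ketone carbon into sterols and fatty acids) fell on fasting by 3.37 in CTRL livers (SE 0.31, adjusted p = 2.2e-10), from 3.98 to 5.48 down to 0.17 to 2.31. In fasted AAKO livers it spanned 1.90 to 3.17, higher than in fasted CTRL by 1.28 ± 0.31.

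Npc1 (the lysosomal membrane protein that exports cholesterol) was among the few genes that rose on fasting in both genotypes. It spanned 4.13 to 4.45 in fed and 4.65 to 5.17 in fasted CTRL livers (0.69 ± 0.14, adjusted p = 0.00016), and 3.99 to 4.43 and 4.83 to 5.07 in AAKO livers, a difference of 0.71. Its lysosomal partner Npc2 went down slightly, by 0.38 and 0.35, and was higher in fasted AAKO than fasted CTRL livers by 0.18 ± 0.07. Tmem97 (the sigma-2 receptor, which binds Npc1) fell by 0.89 and 1.02 on fasting and was 0.01 ± 0.11 between fasted genotypes.

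Among the genes of efflux and LXR, Abca1 (the exporter that lipidates HDL) had the largest genotype difference in fasting. It spanned 3.50 to 3.89 in fed CTRL, 3.41 to 3.95 in fed AAKO, 3.35 to 3.91 in fasted CTRL and 4.50 to 5.12 in fasted AAKO livers. Fasted AAKO arrays stood above all of these other groups, and the difference from fasted CTRL was 1.34 ± 0.13, with 1.09 at a second probe. In AAKO livers it was higher in fasted than in fed mice by 1.11 ± 0.13 (adjusted p = 3.1e-09), while in CTRL livers the value was -0.18 ± 0.13 and not called. Macrophages express Abca1 too, and their part in this difference was not tested. The mean of the 6 Kupffer cell and macrophage markers ranged from 0.82 to 2.64 in fasted CTRL and from 0.22 to 2.65 in fasted AAKO livers. All 6 were well above background, and none was called between these groups. Their fitted differences were all positive, from 0.07 ± 0.36 for Cd5l to 0.63 ± 0.36 for Timd4. Of the neutrophil markers 3 of 4 were higher in fasted AAKO livers.

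Abcg5 and Abcg8, which together form the transporter of sterol into bile, gave a like pattern on fasting. Abcg5 spanned 4.82 to 5.39 in fasted CTRL and 5.47 to 6.03 in fasted AAKO livers, without overlap (0.64 ± 0.15). Abcg8 spanned 3.36 to 3.95 and 3.58 to 4.38 (0.32 ± 0.17) and was not called between fasted genotypes, though it rose on fasting in AAKO livers by 0.85 ± 0.17 (adjusted p = 4.6e-05). Abcg1 (a sterol exporter strong in macrophages) was lower on fasting in both genotypes, by 0.48 and 0.38, where 2 of 6 Kupffer cell markers were lower in CTRL and 3 of 6 in AAKO livers.

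The LXR genes moved in opposite directions. Nr1h3 spanned 4.86 to 5.22 in fasted CTRL and 4.40 to 4.66 in fasted AAKO livers, lower by 0.60 (SE 0.05, adjusted p = 7.5e-11) without overlap, and its second probe gave -0.64. Nr1h2 spanned 4.17 to 4.36 and 4.45 to 4.61, higher by 0.24 ± 0.05 without overlap. On fasting in CTRL livers Nr1h2 rose by 0.42 ± 0.05 (adjusted p = 5.3e-08), and with the mean over its 3 probes this was not called (0.16, adjusted p = 0.409).

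Between CL316243 and fed mice, 17 of the 33 genes were not called in CTRL livers and 20 were not called in AAKO livers. In CTRL livers 11 were higher and 5 lower than in fed CTRL livers, against 10.5% and 12.7% of all genes tested, with a median difference of 0.11. In AAKO livers 3 were higher and 10 lower than fed, against 15.5% and 15.9%, with a median of -0.05. Of the 11 genes higher in CTRL livers 2 were among the 3 higher in AAKO livers (Hsd17b7 and Nr1h2), and of the 5 lower in CTRL livers 3 were among the 10 lower in AAKO livers (Insig1, Aacs and Abcg1). These overlaps were counted for the listed genes alone. Within a single wash batch, which holds fewer arrays, fewer of the listed genes were called, 7 and 4 in CTRL and 8 and 5 in AAKO livers. Calls over all genes were not counted there.

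In CTRL livers Hmgcs1 had the highest value for CL316243 against fed, a comparison that also differs in experiment and gavage. It spanned 4.74 to 6.28 in fed and 6.12 to 7.22 in CL316243 livers (1.16 ± 0.21, adjusted p = 0.00014). With the mean over 2 probes Hmgcs1 gave 0.56 and was not called (adjusted p = 0.15). In wash batch 2 alone it was 0.97 and not called (adjusted p = 0.0539). Hsd17b7 rose by 1.03 ± 0.16 (adjusted p = 1.7e-05), Npc1 by 0.80 ± 0.14 (adjusted p = 0.0001) and Cyp51 by 0.73 ± 0.20 (adjusted p = 0.007); Cyp51 was not called in either wash batch alone (0.85, adjusted p = 0.0657, and 0.61, adjusted p = 0.207). Insig1 fell by 1.32 (SE 0.17, adjusted p = 1.6e-06) to a range of 1.02 to 1.61, Abcg1 by 0.93 (SE 0.16, adjusted p = 5.7e-05) and Mvd by 0.75 (SE 0.20, adjusted p = 0.0066), which was not called in either batch alone (-0.72, adjusted p = 0.175, and -0.79, adjusted p = 0.0787). Aacs gave -0.98 ± 0.31 (adjusted p = 0.02), was not called in either batch alone (-1.38, adjusted p = 0.0607, and -0.58, adjusted p = 0.443), and lost its call without CTRL fed replicate 4 (-0.77, adjusted p = 0.0717) or CTRL CL316243 replicate 5 (-0.83, adjusted p = 0.0627). Beside Abcg1, 3 of 6 Kupffer cell and macrophage markers were lower in CTRL livers after CL316243, and the mean of the list was 0.11 to 1.95 against 1.42 to 2.81 in fed CTRL livers. Of the liver endothelium markers 4 of 4 were lower there, and of the stellate cell and fibroblast markers 3 of 4.

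In AAKO livers CL316243 was accompanied by higher Abca1 (0.61 ± 0.13, adjusted p = 0.00034) and Nr1h2 (0.42 ± 0.05, adjusted p = 2.1e-07); in wash batch 2 alone Abca1 was 0.51 and not called (adjusted p = 0.132), and with the mean over probes Nr1h2 was 0.27 and not called (adjusted p = 0.181). Hsd17b7 gave 0.45 ± 0.16 (adjusted p = 0.03), a call lost in either wash batch alone and without any of 6 arrays: AAKO fed replicate 1 (0.44, adjusted p = 0.0506), 3 (0.43, adjusted p = 0.0605) or 5 (0.44, adjusted p = 0.0546), or AAKO CL316243 replicate 1 (0.43, adjusted p = 0.0531), 3 (0.38, adjusted p = 0.0879) or 5 (0.43, adjusted p = 0.0543). Aacs fell by 1.18 (SE 0.31, adjusted p = 0.0036), Abcg1 by 0.85 (SE 0.16, adjusted p = 9.1e-05), Insig1 by 0.78 (SE 0.17, adjusted p = 0.00073) and Pmvk by 0.77 (SE 0.21, adjusted p = 0.0057). In wash batch 2 alone Aacs (-0.95, adjusted p = 0.216) and Insig1 (-0.42, adjusted p = 0.387) were not called, nor was Pmvk in wash batch 1 alone (-0.73, adjusted p = 0.0898). Here 5 of 6 Kupffer cell and macrophage markers were lower, and the mean of the list was 1.22 to 1.86 against 2.32 to 2.96 in fed AAKO livers. Of the liver endothelium markers 2 of 4 were lower, and of the stellate cell and fibroblast markers 3 of 4.

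Between genotypes after CL316243, Mvd and Abca1 were most raised in AAKO livers and Insig2 and Npc1 most lowered. Mvd spanned 0.48 to 1.53 (median 1.21) in CTRL and 1.83 to 2.77 (median 2.36) in AAKO livers, without overlap (1.26 ± 0.20, adjusted p = 2.1e-05), and the AAKO arrays lay within the fed ranges or just above them. Abca1 spanned 3.31 to 3.68 and 3.95 to 4.61, again without overlap (0.89 ± 0.13, adjusted p = 3e-06). None of the 6 Kupffer cell and macrophage markers was called between these groups, and the part of these cells in the Abca1 difference was not tested.

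Sqle and Insig1 were higher as well, by 0.81 ± 0.25 (adjusted p = 0.017) and 0.69 ± 0.17 (adjusted p = 0.0034). Sqle spanned 4.19 to 5.28 in CTRL and 5.40 to 5.94 in AAKO livers, without overlap. Neither was called in a single wash batch (Sqle 0.71, adjusted p = 0.131, and 0.89, adjusted p = 0.166; Insig1 0.64, adjusted p = 0.0527, and 0.85, adjusted p = 0.0853), and Sqle was not called without CTRL CL316243 replicate 4 (0.70, adjusted p = 0.0577). Lss (0.55 ± 0.16) and Nr1h2 (0.27 ± 0.05) completed the 6 genes that were higher.

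Insig2 spanned 4.93 to 5.47 in CTRL and 3.76 to 4.74 in AAKO livers after CL316243, without overlap (-1.04 ± 0.19, adjusted p = 0.00012), and 2 further probes gave -1.08 and -1.25; in wash batch 2 alone it was -0.60 and not called (adjusted p = 0.202). Npc1 spanned 4.93 to 5.25 and 3.64 to 4.90, lower by 0.91 (SE 0.14, adjusted p = 1.3e-05), with -0.87 and -0.96 within the wash batches. The AAKO arrays for Npc1 were spread over a far wider range than those of any other group. Abcg8 was lower by 0.72 (SE 0.17, adjusted p = 0.0016) and Sc5d by 0.49 (SE 0.14, adjusted p = 0.0087), and neither was called in wash batch 2 alone (-0.57, adjusted p = 0.271, and -0.29, adjusted p = 0.376). With the mean over probes Sc5d was -0.35 and not called (adjusted p = 0.189). Dhcr7 (-0.43 ± 0.14), Tmem97 (-0.37 ± 0.11) and Scap (-0.31 ± 0.09) were lower too.

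**Figure D5:**
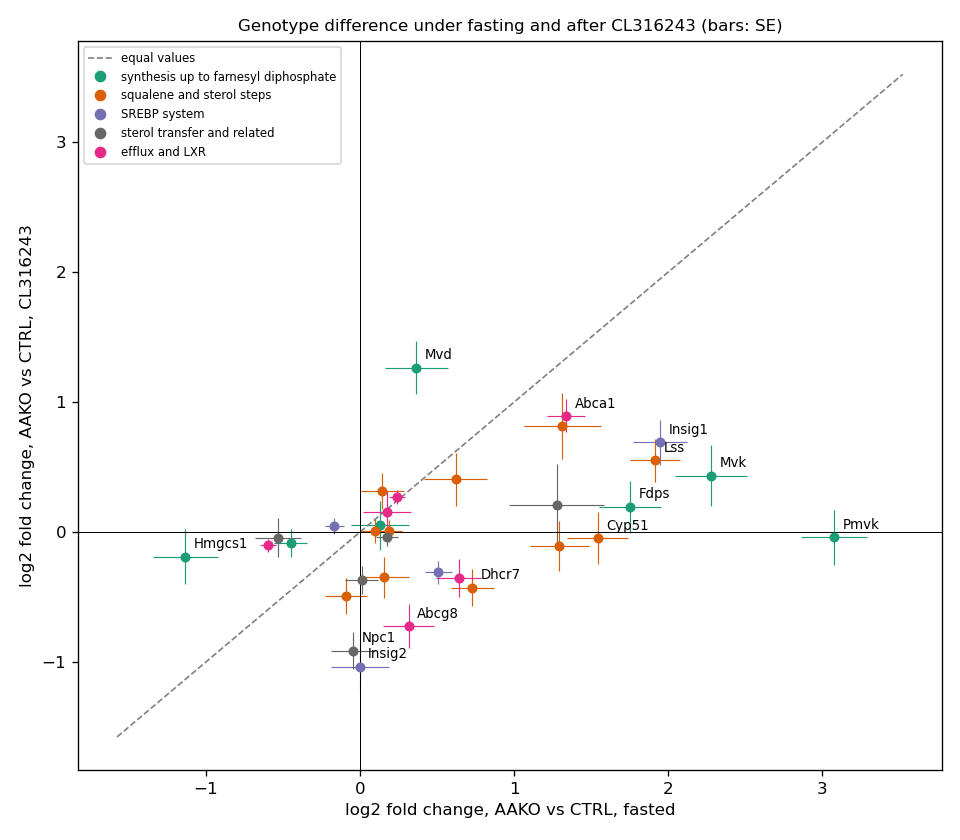
Log2 fold change between AAKO and CTRL livers of the 33 genes after a fast (x axis) and after CL316243 (y axis), with bars for the SE and a dashed line of equal values; colours mark the roles. Pmvk (3.08 and -0.04), Mvk (2.28 and 0.43) and Cyp51 (1.54 and -0.05) lie far to the right near 0 on the y axis, Mvd (0.37 and 1.26) lies above the line, and Insig2 and Npc1 are near 0 on the x axis and at -1.04 and -0.91 on the y axis.

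The genotype differences of fasted and CL316243 livers, which share no arrays, had 5 higher genes in common, 5 of 16 in fasting and 5 of 6 after CL316243 (Sqle, Lss, Insig1, Abca1 and Nr1h2). No gene was lower in both. These overlaps were counted for the listed genes alone, not for all genes tested. Dhcr7 and Scap were higher in fasted and lower in CL316243 AAKO livers. The test of the signed difference between the 2 genotype effects, fasting minus CL316243, called 13 genes higher and 3 lower, against 13.3% and 18.5% of all genes tested. The sign gives a direction and not the size of an effect, so a lower value can also stand for a larger fall in fasting. Pmvk led with 3.12 ± 0.30 (adjusted p = 9.5e-09), then Mvk with 1.85 ± 0.33 (adjusted p = 7e-05) and Cyp51 with 1.59 ± 0.28 (adjusted p = 5.3e-05). The 3 with a negative value were Hmgcs1 (-0.94 ± 0.30, adjusted p = 0.016), Mvd (-0.90 ± 0.29, adjusted p = 0.016) and Nr1h3 (-0.50 ± 0.07, adjusted p = 6e-06). Hmgcs1 was not called in either wash batch alone (-0.84, adjusted p = 0.17, and -1.08, adjusted p = 0.107), nor was Mvd in wash batch 2 alone (-0.47, adjusted p = 0.455). With normexp correction and quantile scaling the split of 13 and 3 became 18 and 4, beside 3597 and 4218 of all 24102 genes. From the authors' deposited values it was 19 and 3, beside 4102 and 3370 of 24363 genes.

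Set against the fed genotype difference, the fasting response differed between genotypes for 17 genes, of which 12 had the higher value in AAKO livers and 5 the lower, against 15% and 18.6% of all genes tested. An effect of the experiments that both genotypes share cancels in this test. The highest values were those of Pmvk (2.39 ± 0.30, adjusted p = 3.7e-07), Mvk (1.88 ± 0.33, adjusted p = 4.8e-05) and Insig1 (1.79 ± 0.24, adjusted p = 1.2e-06). The lowest were those of Hmgcs1 (-1.77 ± 0.30, adjusted p = 2.6e-05), Stard4 (-0.85 ± 0.21, adjusted p = 0.0018) and Sc5d (-0.56 ± 0.20, adjusted p = 0.027). With the mean over probes Hmgcs1 was -0.75 (adjusted p = 0.139) and Stard4 -0.08 (adjusted p = 0.784), neither called, and in wash batch 2 alone Stard4 was -0.35 (adjusted p = 0.423) and Sc5d -0.25 (adjusted p = 0.496). Sc5d also lost its call without CTRL fed replicate 2 (-0.49, adjusted p = 0.0529) or 5 (-0.51, adjusted p = 0.0501), AAKO fed replicate 4 (-0.47, adjusted p = 0.059), CTRL fasted replicate 5 (-0.50, adjusted p = 0.0517) or AAKO fasted replicate 2 (-0.49, adjusted p = 0.0542).

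The response to CL316243 differed between genotypes for 8 genes, 3 higher and 5 lower, against 6.24% and 4.64% of all genes tested. With normexp correction and quantile scaling the split was 3 and 8, beside 1520 and 1327 of all 24102 genes. From the authors' deposited values it was 2 and 8, beside 1188 and 1499 of 24363 genes. Mvd gave 0.95 ± 0.29 (adjusted p = 0.028), Abca1 0.85 ± 0.18 (adjusted p = 0.0015) and Nr1h2 0.25 ± 0.07 (adjusted p = 0.023). Dhcr7 gave -0.98 ± 0.20 (adjusted p = 0.001), Sc5d -0.96 ± 0.20 (adjusted p = 0.0012) and Npc1 -0.85 ± 0.20 (adjusted p = 0.0046). Within a single wash batch, which holds fewer arrays, 0 of 33 genes were called in batch 1 and 1 in batch 2. Calls over all genes were not counted there. The values in the 2 batches were 0.93 and 0.92 for Mvd, 0.78 and 0.86 for Abca1, -1.04 and -0.78 for Sc5d and -0.85 in both for Npc1. Mvd lost its call without CTRL fed replicate 1 (0.83, adjusted p = 0.0623), AAKO fed replicate 3 (0.81, adjusted p = 0.0605), CTRL CL316243 replicate 2 (0.84, adjusted p = 0.0596) or AAKO CL316243 replicate 5 (0.85, adjusted p = 0.0596), without a term for wash batch (0.90, adjusted p = 0.057) and with slide in its place (0.88, adjusted p = 0.0598). Nr1h2 was not called in the authors' value table (0.20, adjusted p = 0.104) or with no filter on dim probes (0.25, adjusted p = 0.0523). With the mean over probes Sc5d (-0.71, adjusted p = 0.0918), Npc1 (-0.63, adjusted p = 0.0805) and Nr1h2 (0.27, adjusted p = 0.525) were not called.

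Fasted and CL316243 mice belonged to the same experiment, and most of the genes were lower in fasted than in CL316243 livers. The fasted arrays are those already set against fed mice, and the CL316243 mice had received the compound by gavage. In CTRL livers 25 genes were lower and 3 higher in fasted than in CL316243 mice, against 19.3% and 17.8% of all genes tested, with a median of -1.37. In AAKO livers 21 were lower and 9 higher, against 34.1% and 25.9%, with a median of -0.44. In CTRL livers the lowest values were those of Sqle (-3.49 ± 0.25, adjusted p = 4.8e-12), Fdps (-3.09 ± 0.20, adjusted p = 6.7e-13), Nsdhl (-3.04 ± 0.19, adjusted p = 5.3e-13) and Cyp51 (-2.98 ± 0.20, adjusted p = 9.8e-13). Insig2 was higher by 2.54 ± 0.19 (adjusted p = 8.7e-12) and Nr1h2 by 0.25 ± 0.05 (adjusted p = 0.00022), which was not called in wash batch 1 alone (0.19, adjusted p = 0.146) or with the mean over probes (0.16, adjusted p = 0.452). Abcg1 gave 0.45 ± 0.16 (adjusted p = 0.023), a call lost with these groups fitted alone (adjusted p = 0.0744), in either wash batch alone (0.76, adjusted p = 0.0525, and 0.14, adjusted p = 0.546), and without CTRL fasted replicate 5 (0.33, adjusted p = 0.0872) or CTRL CL316243 replicate 4 (0.34, adjusted p = 0.0873).

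In AAKO livers the same comparison gave its lowest values for Mvd (-3.60 ± 0.20, adjusted p = 2e-15), Hmgcs1 (-3.40 ± 0.21, adjusted p = 1.6e-14), Stard4 (-3.36 ± 0.15, adjusted p = 1.5e-17) and Sqle (-2.99 ± 0.25, adjusted p = 1e-11). The highest were those of Insig2 (3.58 ± 0.19, adjusted p = 6.7e-16), Pmvk (1.75 ± 0.21, adjusted p = 2.1e-08), Abcg8 (1.07 ± 0.17, adjusted p = 1.8e-06) and Abcg5 (1.01 ± 0.15, adjusted p = 5.1e-07). Hmgcs1 reached 6.27 to 7.21 in AAKO and 6.12 to 7.22 in CTRL livers after CL316243, so that its genotype difference in fasting (-1.13) stood beside one of -0.19 ± 0.21 there.

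Other genes of cholesterol handling, 34 in number and all with a probe, changed in both directions. Between fasted genotypes 14 were higher and 9 lower in AAKO livers, against 21.9% and 27.3% of all genes tested, with a median of 0.18. The share that was lower is thus near that of all genes. Ch25h (cholesterol 25-hydroxylase, which makes an oxysterol) was higher by 2.58 ± 0.35 (adjusted p = 3.6e-07) and Mylip (a ubiquitin ligase induced by LXR) by 1.31 ± 0.18 (adjusted p = 4.8e-07). The Ch25h probe was dim, at -4.72 to -2.08 in fasted CTRL and -1.73 to -1.02 in fasted AAKO livers. In CL316243 CTRL livers it was well above background on 4 of 6 arrays. Lipa (lysosomal acid lipase) was lower by 1.50 (SE 0.10, adjusted p = 9.9e-14) and Abcb4 (the phospholipid exporter into bile) by 1.43 (SE 0.10, adjusted p = 3.6e-13). After CL316243, 9 were higher and 6 lower, against 13% and 11.6% of all genes tested, with a median of 0.07. Cyp7a1 (the rate-limiting enzyme of bile acid synthesis) was lower in AAKO livers by 1.76 (SE 0.43, adjusted p = 0.0024) and Lpcat3 (a phospholipid acyltransferase) by 1.36 (SE 0.10, adjusted p = 8.7e-11), and Cyp7b1 (an oxysterol hydroxylase) was higher by 0.71 ± 0.24 (adjusted p = 0.032) and Dhdds (an enzyme of dolichol synthesis) by 0.66 ± 0.10 (adjusted p = 4.6e-06). In fed mice 0 of these 34 were called, and 6 had an unadjusted p under 0.05, against 1638 of all 24102 genes tested.

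On fasting, Srebf1 (the gene of SREBP-1, which drives fatty acid synthesis) fell by 3.54 in CTRL (SE 0.19, adjusted p = 4e-15) and 2.69 in AAKO livers (SE 0.19, adjusted p = 1.3e-13). The 9 genes of fatty acid synthesis set beside the sterol route had a median of -1.75 on fasting in CTRL and -1.76 in AAKO livers, with 7 of 9 lower in each, against 24.1% and 36.1% of all genes tested. Between genotypes 5 were higher and 2 lower in fasting, against 21.9% and 27.3% of all genes tested, with Thrsp (a regulator of lipogenesis) at 2.19 ± 0.40 (adjusted p = 2.8e-05) and Acly (ATP citrate lyase, which supplies acetyl-CoA) at 1.22 ± 0.20 (adjusted p = 4.6e-06). After CL316243, 6 of the 9 were lower in AAKO than CTRL livers and 0 higher, with Acly at -1.53 ± 0.20 (adjusted p = 7.2e-07) and Pklr (pyruvate kinase) at -1.22 ± 0.26 (adjusted p = 0.00061), against 13% higher and 11.6% lower of all genes tested. Of the 18 sterol synthesis genes 3 were higher and 2 lower there, shares near those of all genes.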

How the data were processed

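RNA of 36 mouse liver samples was measured on 1-colour Agilent arrays. Per the file headers, the authors made the spot intensity values with version 10.10.1.1 of Agilent Feature Extraction, with background subtracted and no scaling between arrays; the same deposited files mark each spot as 0 or 1 for being an outlier, saturated or well above background. The authors' value table holds log2 values whose normalization is not given in the sources used here: its scale and direction followed the scanner signal of each array, its columns had 1 identical median within a group (6.91 in CTRL fed, 6.93 in AAKO fed, 6.97 in CTRL fasted, 7.01 in AAKO fasted, 6.91 in CTRL CL316243 and 6.88 in AAKO CL316243), and whether genes were centred beyond that stays unknown.

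Control spots and outlying spots (0.127%) were left out, spots of a probe were averaged, log2 of the processed intensity was taken relative to the array's 75th percentile over probes, and each gene was given its brightest probe. Genes well above background on at least 5 of 6 arrays of a group (24102 of 37074) were fitted with limma 3.58.1 (R 4.3.3), on 6 groups, with wash batch as covariate. P-values were two-sided and adjusted by Benjamini-Hochberg over all genes tested, and the fit was tested on simulated data. The number of arrays limits the precision. Alternatives were normexp correction with quantile scaling, median scaling, the authors' value table, no filter on dim probes, the mean over a gene's probes, no wash batch term, slide in its place, each wash batch alone, the replicate number as a block, the compared groups alone, and each array left out.

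The members and lists were chosen with earlier results of these data known. Full statistics are given for up to 4 called genes with the highest and 4 with the lowest difference per comparison (3 and 3 for differences between effects), and for up to 2 per direction of other lists. Group labels came from titles, and replicate numbers did not pair arrays: over 90 pairs with equal numbers the median correlation of deviations was 0.00, and 16 exceeded 0.1.

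Cell type lists gave the following counts between genotypes, higher and lower, in fasted livers: hepatocyte 2 and 3 of 6, Kupffer cell and macrophage 0 and 0 of 6, liver endothelium 2 and 0 of 4, stellate cell and fibroblast 2 and 0 of 4, cholangiocyte 0 and 2 of 4, neutrophil 3 and 0 of 4, adipocyte 1 and 2 of 4, and red cell 0 and 1 of 2 with a probe.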

Additional observations from a re-analysis of the deposited data

Results flagged for a closer look

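In 11 of 198 sets of 6 arrays (33 genes in 6 groups) a single array stood far from the other 5, with a gap to its nearest neighbour of more than 0.625 of the range; chance alone gives about 1 in 20. Pmvk was at 4.46 in AAKO CL316243 replicate 6, next to 4.92. Mvd was at 2.59 in CTRL fed replicate 1, next to 1.96. Ggps1 was at 0.87 in CTRL fasted replicate 2, next to 1.26, and at 1.23 in AAKO fasted replicate 6, next to 0.85. Fdft1 (4.38, next to 4.88), Dhcr7 (2.11, next to 2.64) and Nr1h2 (4.19, next to 4.03) stood apart in the same array, CTRL CL316243 replicate 4. Tm7sf2 was at 5.75 in AAKO fasted replicate 2, next to 6.10. Nsdhl was at 1.75 in CTRL fed replicate 2, next to 2.39. Scap was at 5.11 in AAKO fed replicate 1, next to 5.27. Nr1h3 was at 4.86 in CTRL fasted replicate 2, next to 5.12.

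Genotype effects differed between conditions in limma's test of the difference for the following genes. Between fasting and feeding the difference of effects was 2.39 for Pmvk, 1.88 for Mvk, 1.79 for Insig1, -1.77 for Hmgcs1, -0.85 for Stard4 and -0.56 for Sc5d. Between CL316243 and feeding it was 0.95 for Mvd, 0.85 for Abca1, 0.25 for Nr1h2, -0.98 for Dhcr7, -0.96 for Sc5d and -0.85 for Npc1. Between fasting and CL316243 it was 3.12 for Pmvk, 1.85 for Mvk, 1.59 for Cyp51, -0.94 for Hmgcs1, -0.90 for Mvd and -0.50 for Nr1h3.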

How the results depend on the processing

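Each wash batch holds fewer arrays. With wash batch 1 alone the number of the 33 genes called was 7 between genotypes after CL316243, 7 for CL316243 against fed in CTRL and 8 in AAKO livers, 9 for the interaction of genotype with fasting and 0 for that with CL316243. With wash batch 2 alone these were 4, 4, 5, 11 and 1, against 13, 16, 13, 17 and 8 with all arrays. Calls over all genes were not counted in the fits of single batches, so the drop cannot be read as particular to these genes. Leaving out 1 array at a time gave 0 to 1 called genes between fed genotypes, the 1 being Fdps. The fasted genotype count ran from 19 to 22 and the CL316243 genotype count from 12 to 14. With the replicate block the counts were 20 between fasted genotypes, 13 after CL316243 and 29 and 32 for fasting in CTRL and AAKO livers.

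The genotype difference of Stard4 in fasting turned to 0.25 with the mean over all probes; a second probe of opposite sign enters that mean. Over the other settings 820 of the named fold changes kept direction and call, 59 lost the call and 1 turned sign. Leaving out single arrays, 1156 kept both and 20 lost the call. In the authors' value table the share of called genes that were higher, over all genes, was 66.7% against 52.6% between fed genotypes, 56.2% against 45% for fasting in CTRL, 42.3% against 52.8% between genotypes after CL316243, 59.9% against 48% and 58.1% against 43.2% for fasted against CL316243 in CTRL and AAKO livers, and 44.2% against 57.3% and 54.9% against 41.9% for the interactions with CL316243 and with fasting against CL316243. Second probes of Hmgcs1, Nsdhl, Sc5d and Srebf2 also differed from those used, and signal near background limits dim probes.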
